A study of Mus musculus with 4 samples.

Results

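Transcripts of 10 genes were examined, the S100 genes S100a1, S100a4, S100a6, S100a8, S100a9, S100a10 and S100a11 and the annexin genes Anxa1, Anxa2 and Anxa5. They were taken by gene name from a table of 48432 gene rows, in which each of the 10 names stood once. Messenger RNA had been sequenced from isolated mouse heart muscle cells in 4 libraries, 2 for each of 2 groups. The MHC control group carried the genotype labelled MHC. The Rbfox2 OE group carried the genotype labelled RbFox2, and the series title names the overexpressed protein as the non-muscle isoform of RBFOX2, a regulator of alternative splicing. All mice were of the C57BL x FVB strain background, and both groups ate food with doxycycline for 3 days before the hearts were taken and the cells released by Langendorff perfusion. The labels do not name the promoter that drives the transgene, the age or sex of the animals, or whether a library came from 1 animal or several.

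The authors' table gives 1 FPKM value per gene and group (fragments per kilobase of transcript, scaled for the yield of the library, a level corrected for length), with a lower and an upper bound whose confidence level is not stated. The bounds follow each FPKM value below in parentheses. No value per library is given, so there is no replicate spread and no test, and the depth in reads is unknown. A gene is called higher or lower below where the bounds of the groups do not overlap, and the size of a difference is given as a plain ratio or as a log2 ratio of Rbfox2 OE over control with 1 FPKM added to both values. The comparison took in the 11697 genes whose 2 group values averaged 1 FPKM or more, and all 10 S100 and annexin genes passed that filter.

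S100 proteins are small calcium-binding proteins with EF-hand motifs that act as dimers on other proteins. Annexins bind acidic phospholipids of membranes when calcium is present, and several S100 proteins dock onto the free end of an annexin, as S100A10 does on annexin A2 and S100A11 on annexin A1. In the heart S100A1 is the S100 protein of the muscle cell itself, where it binds the ryanodine receptor and the calcium pump. S100A8 and S100A9 form calprotectin, a product of neutrophils and monocytes, and S100A4, S100A6 and annexins A1, A2 and A5 are made by many cell types, among them fibroblasts, endothelial cells and leukocytes.

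Of the 10 genes, 7 were higher in Rbfox2 OE with separate bounds, 0 were lower, and the bounds of 3 overlapped. Over all genes compared, 6.67% were higher and 9.33% lower by the same criterion. The same 7 genes, S100a4, S100a6, S100a8, S100a9, S100a11, Anxa1 and Anxa2, were at least 2-fold higher, against 6.97% of all genes. The median log2 ratio was 1.47 for the 10 genes and -0.06 for all genes compared. S100a8, S100a9 and S100a4 were at least 4-fold higher, a size reached by 1.16% of all genes. In RNA from a cell preparation, more cells of a type and more RNA per cell cannot be told apart.

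**Figure D1:**
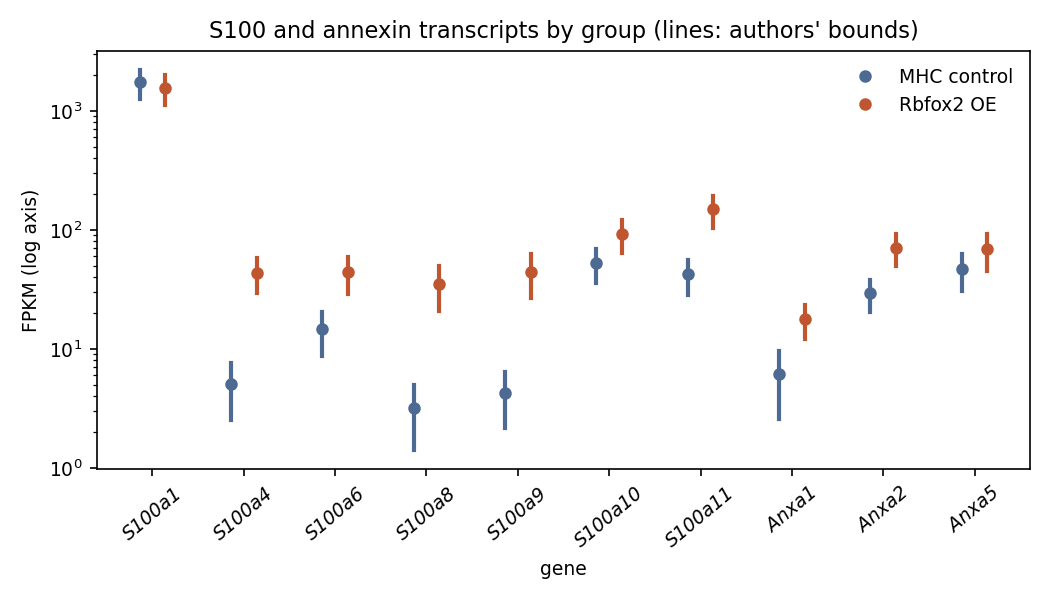
FPKM of the 10 genes on a log axis in MHC control (blue) and Rbfox2 OE (orange), 1 pooled value of 2 libraries per point, with lines for the authors' bounds. S100a1 stands above all others in both groups with overlapping bounds, while S100a4, S100a8 and S100a9 lie at 3.19 to 5.11 FPKM in control cells and at 35.0 to 44.5 FPKM in Rbfox2 OE cells.

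The abundant gene of the muscle cell, S100a1 (ENSMUSG00000044080.9, chromosome 3, 90511034 to 90514392, minus strand), stood at 1736 FPKM in control cells (1261 to 2212) and at 1558 FPKM in Rbfox2 OE cells (1127 to 1988). The groups overlapped over most of their range. The ratio was 0.897 and the log2 ratio -0.16, which moved to -0.0033 when the groups were rescaled as described below. The level of S100a1 exceeded that of 99.8% of compared genes in either group. It was also the one gene of the 10 whose bounds lay apart from those of the next gene in order of level, S100a10 at 52.3 FPKM in control cells and S100a11 at 149 FPKM in Rbfox2 OE cells.

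S100a8 (chromosome 3, 90668978 to 90670035, plus strand) and S100a9 (chromosome 3, 90692632 to 90695721, minus strand) encode the partners of calprotectin, which binds calcium, zinc and manganese and signals through Toll-like receptor 4 and the receptor AGER. S100a8 stood at 3.19 FPKM in control cells (1.42 to 4.97) and at 35.0 FPKM in Rbfox2 OE cells (20.7 to 49.4). S100a9 stood at 4.26 FPKM in control cells (2.166 to 6.36) and at 44.5 FPKM in Rbfox2 OE cells (26.9 to 62.2). Both were low in the control and clearly apart from it in Rbfox2 OE. The ratios were 10.97 and 10.4, and the log2 ratios of 3.10 and 3.11 are the largest of the 10 genes. Among all genes compared, 33 had a log2 ratio at least as large as that of S100a9, itself included. That count takes in Atp2a2, which had no estimate in the control and was listed at 0 there. The level of S100a8 was 0.749 of that of S100a9 in the control and 0.787 of it in Rbfox2 OE, so the balance between the partners differed by less than the bounds allow (0.223 to 2.29 and 0.333 to 1.84).

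S100a4 (chromosome 3, 90603771 to 90606045, plus strand) encodes metastasin, a motility protein that binds nonmuscle myosin and is found in fibroblasts and leukocytes. It stood at 5.11 FPKM in control cells (2.54 to 7.67) and at 43.7 FPKM in Rbfox2 OE cells (29.3 to 58.1), a ratio of 8.56 and a log2 ratio of 2.87. S100a6, which encodes calcyclin (chromosome 3, 90612882 to 90624181, plus strand), stood at 14.6 FPKM in control cells (8.69 to 20.5) and at 44.2 FPKM in Rbfox2 OE cells (28.9 to 59.5). Its ratio was 3.03 and its log2 ratio 1.54. The 2 genes differed in level in the control, with S100a6 above S100a4 and separate bounds, and stood side by side in Rbfox2 OE. In the annotation S100a4 overlaps Gm42674 on the same strand, which was listed at 0 in both groups.

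The annexin partners were compared as pairs. S100a11 (chromosome 3, 93520488 to 93526287, plus strand), the partner of annexin A1, stood at 42.2 FPKM in control cells (28.3 to 56.1) and at 149 FPKM in Rbfox2 OE cells (103 to 194), a ratio of 3.53 and a log2 ratio of 1.79. Its difference of 107 FPKM is the largest gain in level among the 10 genes. Anxa1 (chromosome 19, 20373428 to 20390944, minus strand), which encodes an anti-inflammatory ligand of formyl peptide receptors, stood at 6.11 FPKM in control cells (2.59 to 9.64) and at 17.8 FPKM in Rbfox2 OE cells (12.1 to 23.5). Its log2 ratio was 1.40. The level of S100a11 was 6.90 times that of Anxa1 in the control and 8.34 times in Rbfox2 OE, with wide bounds of 2.93 to 21.7 and 4.39 to 16.02.

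S100a10 (chromosome 3, 93555080 to 93564643, plus strand) encodes p11, which lacks working calcium sites and holds annexin A2 in a tetramer at the membrane. It stood at 52.3 FPKM in control cells (36.0 to 68.6) and at 92.6 FPKM in Rbfox2 OE cells (64.2 to 121). Its log2 ratio was 0.81, and the bounds overlapped by a narrow margin, which rescaling removed (log2 ratio 0.96, lower bound 71.4). Anxa2 (chromosome 9, 69453620 to 69491795, plus strand) stood at 29.2 FPKM in control cells (20.2 to 38.2) and at 70.8 FPKM in Rbfox2 OE cells (49.6 to 91.9), a ratio of 2.42 and a log2 ratio of 1.25. The level of S100a10 was 1.79 times that of Anxa2 in the control and 1.31 times in Rbfox2 OE, and these overlapped (0.943 to 3.39 and 0.698 to 2.44). In the annotation Anxa2 overlaps the antisense gene Gm16144 and Anxa1 overlaps the lincRNA gene 1500015L24Rik on the opposite strand, and whether strand was used in the counting is not given in the sources used here.

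Anxa5 (chromosome 3, 36448923 to 36475894, minus strand), whose protein binds phosphatidylserine, stood at 46.8 FPKM in control cells (30.9 to 62.7) and at 68.5 FPKM in Rbfox2 OE cells (45.3 to 91.8). The log2 ratio was 0.54, the bounds overlapped, and 2111 compared genes had a ratio at least as large. With S100a10 and S100a1 it made up the 3 genes without separate bounds. These had the 3 highest values of the 10 in the control, where the bounds of Anxa5 and the next gene, S100a11, overlapped. The range that the bounds allow for each log2 ratio is wide throughout, from 0.37 to 2.13 for Anxa2 and from 1.86 to 4.38 for S100a8, for example.

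**Figure D2:**
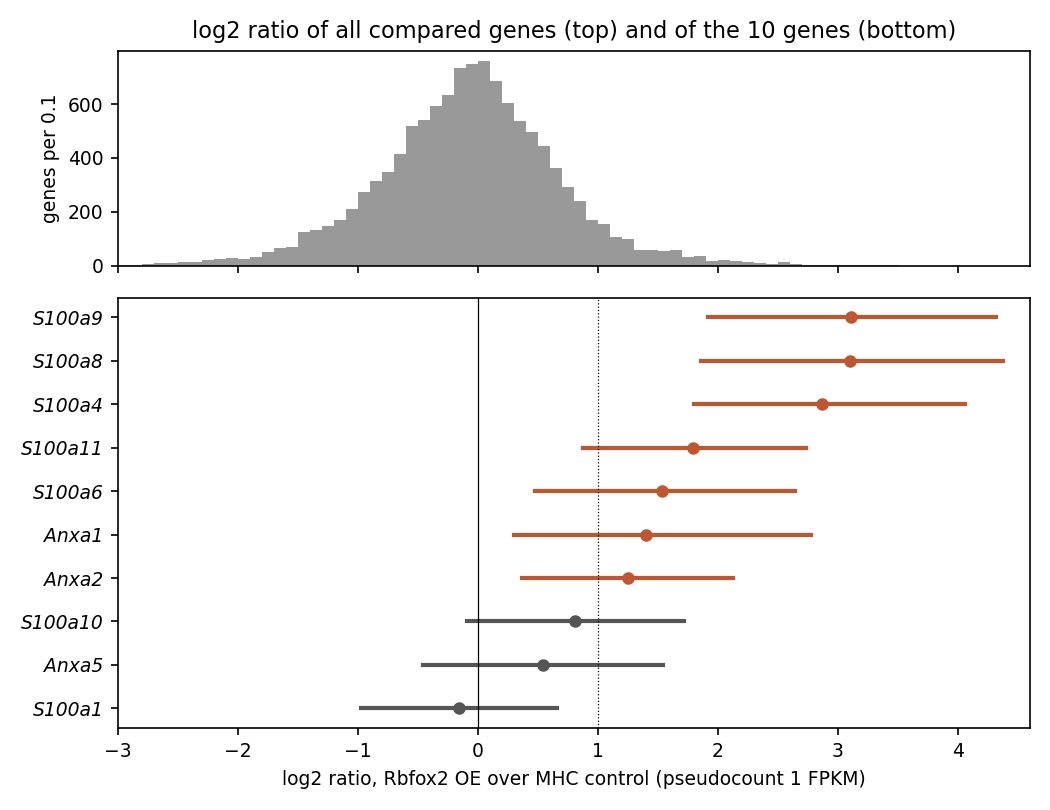
Top, number of genes per 0.1 of log2 ratio (Rbfox2 OE over MHC control, 1 FPKM added) for the compared genes between -3 and 3.5. Bottom, the 10 genes on the same axis, with lines from the nearest to the farthest pair of the authors' bounds, orange where the bounds are separate, and a dotted line at 2-fold. S100a9, S100a8 and S100a4 lie at the far right, at 3.11, 3.10 and 2.87, and S100a1 lies at -0.16.

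The order of the levels therefore differed between the groups below S100a1. In the control it ran S100a10, Anxa5, S100a11, Anxa2, S100a6, Anxa1, S100a4, S100a9 and S100a8. In Rbfox2 OE it ran S100a11, S100a10, Anxa2, Anxa5, S100a9, S100a6, S100a4, S100a8 and Anxa1. Neighbours in either order below S100a1 had overlapping bounds, so single steps in it are not resolved. Among 16 S100 genes (all of the table but S100a2), S100a1 held 90.3% of the summed FPKM in control cells and 76.2% in Rbfox2 OE. The sum over the other 15 was 187 FPKM in control cells and 488 FPKM in Rbfox2 OE cells, a ratio of 2.61.

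Other genes of both families give the setting. Lists other than the 10 genes are counted below over every listed gene with an estimate in both groups, without the filter of 1 FPKM, since a gene low in control cells passes that filter through Rbfox2 OE alone. Over all genes with such estimates, 2.18% were higher and 2.49% lower with separate bounds. These shares are low in part because 25485 of 48316 gene names were listed at 0 in both groups and could not be called. Among the 11697 genes averaging 1 FPKM or more, the shares were 6.67% and 9.33%. Of 10 other S100 and S100-related genes, 0 had separate bounds, and 3 averaged 1 FPKM or more. S100a2, listed at 0 in both groups, was not on that list. S100a13, which takes part in the export of fibroblast growth factor, stood at 35.4 FPKM in control cells (24.0 to 46.7) and 38.1 FPKM in Rbfox2 OE cells (25.9 to 50.2). S100a16 stood at 29.6 and 40.3 FPKM, with a log2 ratio of 0.43. S100pbp, which encodes a protein that binds an S100 protein and is no S100 gene itself, stood at 3.38 and 3.68 FPKM. S100b, the S100 gene of glia, stood at 0.288 and 0.398 FPKM with both lower bounds at 0.

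Of 9 other annexin genes, 2 were higher and 2 lower with separate bounds. Anxa7, which encodes synexin, stood at 25.8 FPKM in control cells and 47.5 FPKM in Rbfox2 OE cells (log2 ratio 0.85). Anxa8 stood at 0.506 and 2.18 FPKM (log2 ratio 1.08). Anxa11 went the other way, from 26.0 FPKM in control cells (18.04 to 34.0) to 11.9 FPKM in Rbfox2 OE cells (8.05 to 15.8), a log2 ratio of -1.06. Anxa13 was lower too, at 1.32 and 0.0988 FPKM. Anxa6, an annexin of the muscle cell membrane and the most abundant annexin of the control, stood at 86.7 FPKM (61.7 to 112) and at 52.8 FPKM in Rbfox2 OE cells (37.2 to 68.5), with a log2 ratio of -0.70 and overlapping bounds. Anxa2 stood at 0.337 of the level of Anxa6 in the control (0.181 to 0.620) and at 1.34 times that level in Rbfox2 OE (0.725 to 2.47), so these ranges did not overlap between the groups. Within Rbfox2 OE the bounds of Anxa2 and Anxa6 overlapped. Of the FPKM summed over 12 annexins, Anxa6 held 36.0% in the control and 17.6% in Rbfox2 OE, and Anxa2 held 12.1% and 23.5%.

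**Figure D3:**
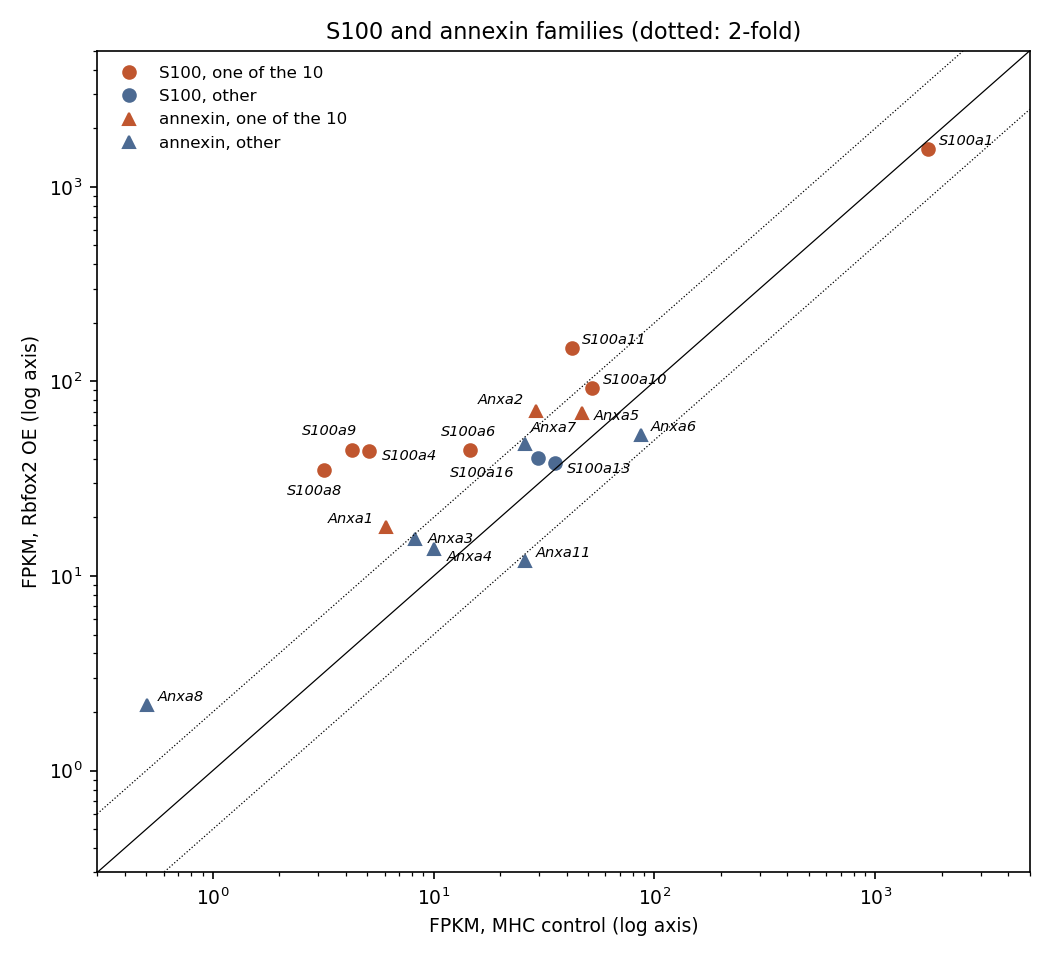
FPKM in MHC control (horizontal, log axis) against Rbfox2 OE (vertical, log axis) for the S100 genes (circles) and annexins (triangles) averaging 1 FPKM or more, orange for the 10 genes, with a line of equality and dotted lines at 2-fold. S100a13 and S100a16 lie near the line of equality, and Anxa11 and Anxa6 lie below it, while S100a4, S100a8 and S100a9 lie far above.

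The 7 S100 genes of the set lie in 2 blocks of chromosome 3 (GRCm38). The first spans 185 kb, from 90511034 to 90695721, with 13 protein-coding genes and S100a1, S100a4, S100a6, S100a8 and S100a9 among them. The second spans 44.2 kb, from 93520488 to 93564643, with S100a11 and S100a10, and lies 2825 kb away. Genes of the first block did not share 1 pattern: S100a1, S100a13 and S100a16 at its one end had log2 ratios of -0.16, 0.10 and 0.43 with overlapping bounds, and S100a4, S100a6, S100a8 and S100a9 had 1.54 to 3.11 with separate bounds. Between these, S100a3, S100a5, S100a7a and S100a14 stayed under 0.1 FPKM in both groups, and S100a2 was listed at 0. Chtop and Snapin, the flanking genes outside the block beside S100a1, had log2 ratios of 0.78 and -0.03 with overlapping bounds, and Pglyrp4 at the far side stood at 0.00941 and 0.0196 FPKM.

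**Figure D4:**
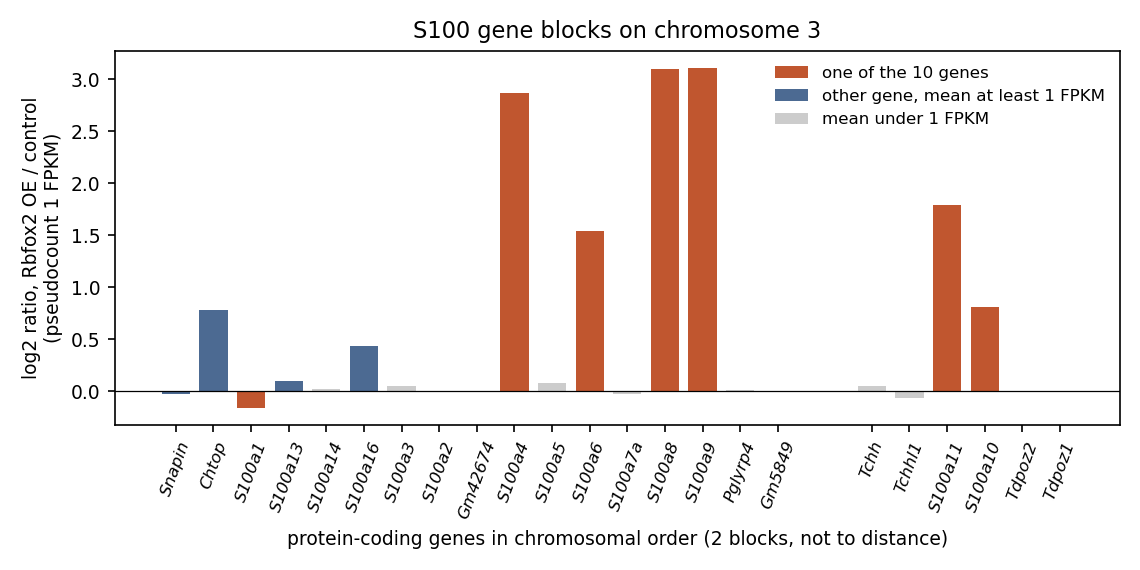
log2 ratio (Rbfox2 OE over MHC control, 1 FPKM added) of the protein-coding genes of both S100 blocks and 2 flanking genes on each side, in chromosomal order and not to distance, orange for the 10 genes and grey for genes with a mean under 1 FPKM. The bars of S100a4, S100a6, S100a8 and S100a9 reach 1.54 to 3.11, while those of S100a1, S100a13 and S100a16 in the same block reach at most 0.43.

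S100a1 and S100a13 start on opposite strands, 42 bases apart, with levels that differed 49.1-fold in the control and 40.9-fold in Rbfox2 OE and with overlapping bounds between groups for both. The gap is shown because it is all the sequence that separates these neighbours. It is read here on the strand of S100a1, at chr3:90514393-90514434 of GRCm38.p6, from RefSeq's table.
S100a1 to S100a13 gap: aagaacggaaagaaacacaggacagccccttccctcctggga

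RefSeq's promoter windows, 250 bases before to 50 after a gene's start, were found for 9 of the 10 genes. On both strands they were searched for TATAAA, a form of the TATA box, for TGANTCA, a form of the AP-1 site, and for GGGCGG, a GC box, and none of the matches overlapped a match to another of these motifs. TATAAA was in 5 of the 9 windows, against 13.6% of 32851 windows in the table. The 5 were S100a4, S100a8, S100a9, Anxa1 and Anxa2, all with separate bounds, and the windows of S100a1 and Anxa5, without separate bounds, held none. S100a6 and S100a11, which also had separate bounds, held none either. Distances were counted from RefSeq's starts. The matches lay 31, 30, 32 and 17 bases before those of S100a4, S100a8, Anxa1 and Anxa2, and at that of S100a9. RefSeq's starts can differ from the gene positions given above, which are from GENCODE, although that of S100a9 is the same. By the GENCODE positions the matches of S100a8, S100a9, Anxa1 and Anxa2 lie inside the genes, that of S100a9 at the very start of its gene. They are shown on the strand of the gene, with the motif in capitals, because the 3 genes with the largest ratios all carry one. The positions are chr3:90603727-90603756 (plus), chr3:90669029-90669058 (plus), chr3:90695704-90695733 (minus), chr19:20390686-20390715 (minus) and chr9:69453654-69453683 (plus) of GRCm38.p6, in the order of the lines.
S100a4: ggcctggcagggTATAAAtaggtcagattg
S100a8: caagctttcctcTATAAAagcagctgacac
S100a9: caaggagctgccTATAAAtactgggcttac
Anxa1: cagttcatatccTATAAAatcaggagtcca
Anxa2: ggatggggcgggTATAAAagccccacccag

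TGANTCA was in 2 of the 9 windows, against 7.81% of all windows, with 2 matches for S100a11 and 1 for Anxa2. GGGCGG was in 3 of the 9, S100a9, S100a11 and Anxa2, against 35.7% of all windows. The TGANTCA matches are shown for S100a11, the gene with the largest gain in FPKM, and for Anxa2, with the motif in capitals. They lie at chr3:93520348-93520377 and chr3:93520446-93520475 (plus) and at chr9:69453576-69453605 (plus). Distances are again from RefSeq's starts.
S100a11, 136 bases before the start: acagagacctgtTGAGTCAcagggactaca
S100a11, 38 bases before the start: gcgggcacagccTGAGTCAggctgaggggc
Anxa2, 95 bases before the start: ttccaagttggaTGAGTCAcccagcagggt

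RBFOX proteins bind UGCAUG in RNA, so the longest protein-coding transcript of each gene in GENCODE M21 was searched for TGCATG on its own strand. It was found once in S100a9 and once in S100a10, both in the coding sequence, and in none of the other 8. Of 2069 compared genes whose longest coding transcript is 486 to 1731 bases long, as those of the 10 genes are, 25.3% hold it. Introns, where RBFOX proteins also bind, were not searched. The 2 matches are shown in capitals because they are the ones in these mature transcripts, at positions 347 and 395 of the transcripts.
S100a9: gtcatgagaagcTGCATGagaacaacccac
S100a10: agggctcaccatTGCATGcaatgactattt

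Of 10 genes of receptors of these proteins, 3 were higher and 0 lower with separate bounds. The formyl peptide receptors of annexin A1 were low. Fpr1 stood at 0.151 FPKM in control and 2.01 FPKM in Rbfox2 OE cells, and Fpr2 at 0.391 and 4.85 FPKM, with log2 ratios of 1.38 and 2.07. Cd14, the coreceptor of Toll-like receptor 4, stood at 6.90 FPKM in control cells and 27.3 FPKM in Rbfox2 OE cells (log2 ratio 1.84). Tlr4 itself stood at 6.07 and 8.36 FPKM with overlapping bounds, and Ager at 0.0214 and 0.162 FPKM. The most abundant receptor genes of the list, Bsg and Cd36, stood at 1434 and 1476 FPKM (log2 ratio 0.04) and at 797 and 436 FPKM (log2 ratio -0.87), both with overlapping bounds.

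The complex of annexin A2 and S100A10 gathers plasminogen and its activators at the cell surface, and S100A10 also escorts channels to the membrane. Of 14 genes of that list in the table, 3 were higher and 3 lower with separate bounds. Plaur, the receptor of urokinase, stood at 2.67 FPKM in control cells and 12.2 FPKM in Rbfox2 OE cells (log2 ratio 1.85), and Serpine2, a protease inhibitor, at 3.38 and 8.70 FPKM (log2 ratio 1.15). Plau, which encodes urokinase, stood at 0.646 and 1.71 FPKM, and Plat had a log2 ratio of 0.83 with overlapping bounds. Kcnk3, a potassium channel that S100A10 binds, stood lower in Rbfox2 OE, at 26.4 FPKM against 106 FPKM (log2 ratio -1.97), and the other lower ones were Hltf, at 4.29 and 1.74 FPKM, and Scn10a, at 0.625 and 0.101 FPKM. Ahnak, a large scaffold bound by the complex, stood at 31.7 and 29.2 FPKM. Of 12 genes of plasma membrane repair, a process in which annexins A1, A2, A5 and A6 take part, 1 was higher with separate bounds, Myof at 0.812 and 2.04 FPKM, and 0 were lower. Dysf, the dysferlin gene, stood at 17.7 and 8.03 FPKM with overlapping bounds.

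S100A1 acts on proteins of calcium handling and energy supply, and their transcripts were compared beside it. Of 10 such genes with an estimate in both groups, 5 were lower with separate bounds and 0 higher, with a median log2 ratio of -0.73. Ryr2, Pln and Ttn are also on the list of cardiomyocyte markers below, where Ryr2 and Pln count as lower again. Slc8a1, Pln, Ryr2 and Cacna1c had log2 ratios of -2.73, -2.42, -2.39 and -2.19, and Pygm, a glycogen phosphorylase, had -1.04. Atp5a1, the ATP synthase subunit that S100A1 binds, stood at 2148 and 1598 FPKM with overlapping bounds, and S100a1 beside these had -0.16. Atp2a2, the calcium pump gene, had no estimate in the control (status HIDATA, listed at 0).

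The genes nearest to 4 of the 10 in the plane of both values (Euclidean distance of log2 values with 1 FPKM added, over the 2 groups) are a description only. Beside S100a1 these were Cox4i1 and Aldoa (distances 0.133 and 0.150), and beside S100a9 they were Prg4 and S100a4 (0.0890 and 0.216). Beside Anxa2 they were C1qa and Myl9 (0.0500 and 0.108), and beside S100a10 they were Snrpb and Tmed2 (0.0776 and 0.0783).

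Markers of other cell types were compared between the groups in the same way. Of 13 neutrophil markers, 6 were higher with separate bounds and 0 lower, with a median log2 ratio of 0.91. Lcn2, at 14.7 and 94.5 FPKM, was the only one of the 13 at 1 FPKM or more in both groups. The other higher ones, Csf3r (0.319 and 4.52 FPKM), Retnlg (0.884 and 6.47 FPKM), Cxcr2 (0.0939 and 1.88 FPKM), Mmp8 and Ngp, were under 1 FPKM in control cells. The neutrophil list summed to 17.2 FPKM in control cells and 114 FPKM in Rbfox2 OE cells, and Lcn2 made up most of either sum. Mpo and Elane were listed at 0 in both groups and Ly6g at 0.0836 and 0.205 FPKM. Of 14 macrophage and monocyte markers, 12 were higher with separate bounds and 0 lower, with a median log2 ratio of 1.55 and sums of 125 and 427 FPKM. Among these Itgam stood at 1.10 and 9.58 FPKM, Cd68 at 3.77 and 20.9 FPKM and Lyz2 at 41.3 and 169.7 FPKM. Ccr2, Csf1r and Adgre1 had log2 ratios of 1.89, 1.13 and 0.97.

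Of 12 fibroblast markers, 9 were higher with separate bounds, with a median log2 ratio of 1.39 and sums of 299.6 and 742 FPKM. Col3a1 stood at 16.2 and 74.2 FPKM and Postn at 7.15 and 32.5 FPKM, and Fn1, Col1a1 and Col1a2 had log2 ratios of 1.83, 1.72 and 1.55. Lum, Pdgfra and Tcf21 had log2 ratios of 0.63, 1.02 and 0.36 with overlapping bounds. Of 12 endothelial markers 5 were higher, with a median of 0.73 and sums of 602 and 1008 FPKM. Ly6a, Emcn, Vwf and Cldn5 had log2 ratios of 1.53, 1.30, 1.27 and 1.08, and the defining Pecam1, Cdh5 and Kdr had 0.99, 0.88 and 0.03. The median of the 10 S100 and annexin genes, 1.47, lay between those of the fibroblast and the macrophage lists. Of 12 cardiomyocyte markers with an estimate in both groups, 5 were lower with separate bounds and 0 higher, with a median of -0.68. Tnnt2 stood at 10609 and 6917 FPKM with overlapping bounds, and Tnni3 at 7811 and 3866 FPKM with separate bounds. Myh6 and Mb were without an estimate in both groups. The part of these other cells in the differences of the S100 and annexin genes was not tested.

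**Figure D5:**
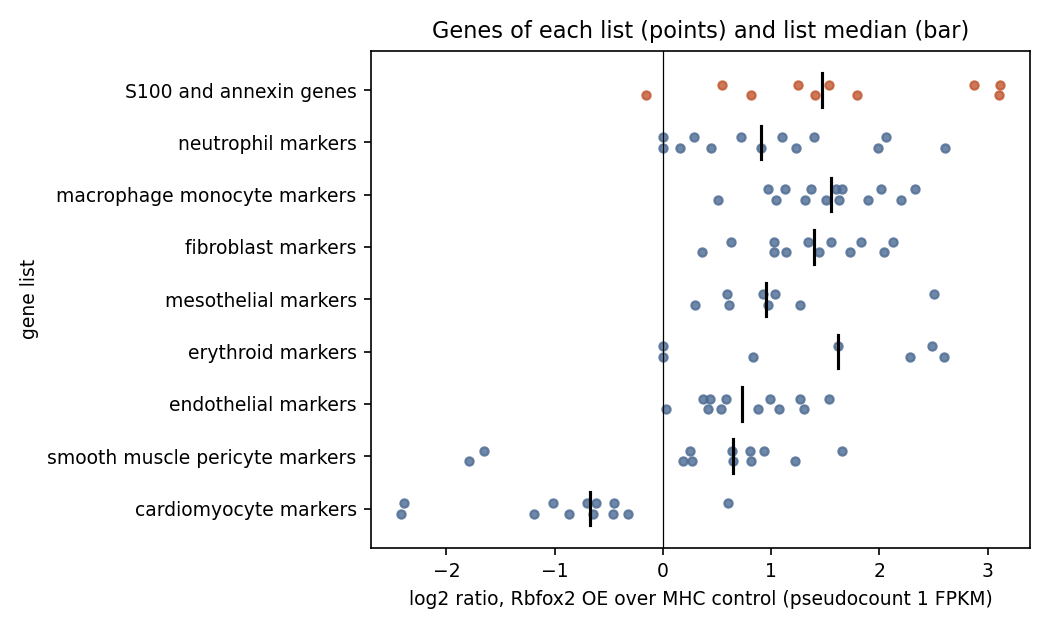
log2 ratio (Rbfox2 OE over MHC control, 1 FPKM added) of every listed gene with an estimate in both groups, without a filter on low values, by list, with a bar at the median. The 10 S100 and annexin genes (top, orange) have a median of 1.47, the neutrophil, macrophage and fibroblast markers 0.91, 1.55 and 1.39, and the cardiomyocyte markers -0.68.

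As a check of the labels, Rbfox2 stood at 14.7 FPKM in control cells (10.4 to 19.0) and at 293 FPKM in Rbfox2 OE cells (214 to 373). The scaling of the groups shifts every ratio alike. Rescaling both groups to the same sum without mitochondrial genes and the 10 most abundant genes raised Rbfox2 OE by 0.15 on the log2 scale. The 2-fold genes of the whole table were 41.0% higher ones as deposited (815 higher and 1172 lower) and 53.9% higher ones after rescaling (1072 and 916). The 7 genes kept separate bounds under it, with S100a10 added.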

How the data were processed

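Polyadenylated RNA was sequenced from stranded TruSeq libraries on an Illumina HiSeq4000, per the labels' protocols. Libraries were grouped by title, 2 per group. Per the file headers, the deposited FPKM values come from Cuffdiff and give 1 value per gene and group, and the other deposited columns are its bounds, also in FPKM. The submitters' processing notes name Cuffdiff 2.2.1, STAR 2.4.2a, HTSeq and the build GRCm38 (mm10), without the role of each. The annotation is not given in the sources used here. Genes marked HIDATA (30 in the control, 26 in Rbfox2 OE) are listed at 0. The number of other columns with values per library was 0.

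From the deposited FPKM, log2 ratios were taken after adding 1 FPKM to both values, so changes of low genes are understated. Rows sharing a name (110 names) were summed. The planned limma fit needs values per library and was not run. The calculation was tested on simulated data. Positions of genes are from GENCODE M21 on GRCm38, which held the identifiers of 99.3% of the names. Python 3.11.15, pandas 2.3.3 and NumPy 2.4.6 were used. Alternatives covered the pseudocount, filter, scaling, status, fold threshold and repeated names.

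The 10 genes and the lists were chosen with earlier results of these data known. The lists cover other S100 genes and annexins, receptors, plasmin and S100A10 partners, membrane repair, targets of S100A1 and markers of 8 cell types. Named were the 10 genes, Rbfox2, up to 4 genes per list past both criteria by size, the first 3 measured markers of a list, genes of the S100 blocks and the nearest 2 genes to 4 of the 10. Counting the lists without the filter was chosen after the values were seen. Others, such as Bsg, Cd36, Scn10a, Tlr4, Dysf and Anxa6, were named for their role after their values were seen. Lum, Pdgfra and Tcf21 were named for their overlapping bounds.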

Additional observations from a re-analysis of the deposited data

How the results depend on the processing

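No paired analysis was possible because libraries of a group share 1 deposited value, and leaving out a library could not be run for the same reason. The depth in reads is unknown, which limits the low values most. The 7 genes with separate bounds stayed 7 under every alternative that bears on it other than rescaling, which gave 8. At 2-fold the count stayed at 7 under the pseudocounts, filters, scalings, status and name settings, and was 8 at 1.5-fold and 3 at 4-fold. The log2 ratio ranged over the alternatives from 2.29 to 3.41 for S100a8, from 2.42 to 3.35 for S100a9, from 2.27 to 3.07 for S100a4, from 1.04 to 1.55 for Anxa1 and from -0.16 to -0.0033 for S100a1. Over all genes, a pseudocount of 5 gave 304 higher and 559 lower at 2-fold, and a minimum mean of 5 FPKM gave 446 higher by separate bounds and 492 higher at 2-fold, with fewer genes compared. A 1.5-fold threshold gave 1938 higher and 2582 lower, and a 4-fold threshold 136 higher and 154 lower.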

Other observations

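Markers of 3 further cell types were measured beside the 10 genes. Of 8 mesothelial markers, genes of the epicardial surface layer, 4 were higher with separate bounds in Rbfox2 OE and 0 lower, with a median log2 ratio of 0.95. Aldh1a2, a retinoic acid synthase, was measured at 1.61 FPKM in control cells and 13.8 FPKM in Rbfox2 OE cells, and Msln and Upk3b had log2 ratios of 1.26 and 1.03. Wt1 stood at 3.03 and 5.16 FPKM with overlapping bounds. Of 7 red blood cell markers, counted without a filter on low values as the other lists were, 4 were higher and 0 lower, with Hbb-bs at 42.1 and 209 FPKM. The globin genes Hba-a1 and Hba-a2 are near-identical copies, so the split of fragments between them is uncertain. Of 12 smooth muscle and pericyte markers, 3 were higher and 2 lower. Acta2 stood at 43.7 and 139.6 FPKM, while Smtn and Abcc9, the latter also a channel subunit of the heart muscle cell, had log2 ratios of -1.66 and -1.79. The part of these cells in the values of the S100 and annexin genes was not tested.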
